A study of Mus musculus with 8 samples.

Results

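The transcription factors Msx1, Msx2, Pax9, Barx1, Barx2, Pitx1, Lhx6, Lhx8 and Prrx1 were followed in lower molars of mouse embryos with and without the Notch ligand Jagged1 in the epithelium. They were chosen by name as regulators of tooth development, and each symbol matched 1 of the 43629 Ensembl genes counted. Molars were taken at E18.5 from 4 K14Cre;Jagged1fl/fl embryos (K14J26, K14J28, K14J29 and K14J30) and from 4 Jagged1fl/fl control embryos (J3, J5, J6 and J7), and the left and right teeth of an embryo were pooled and sequenced as RNA. Both genotypes carried the floxed alleles, and they differed by the K14:Cre transgene, whose keratin 14 promoter is active in epithelium, so that mesenchymal cells of the mutants kept the ligand gene. The study calls the controls WT littermates, and which embryos shared a litter, and their sex, was not given. Because whole teeth were sequenced, fewer cells that express a gene and less RNA per cell cannot be told apart in any value below.

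Tooth development proceeds through an exchange of signals between the dental epithelium and the neural crest-derived mesenchyme beneath it, and the factors described here record and relay this exchange. Msx1 and Pax9 are needed in the mesenchyme for teeth to pass the bud stage, where they act together on Bmp4. Barx1 marks the molar-forming mesenchyme of the jaw, Lhx6 and Lhx8 are LIM-homeodomain factors of the oral side of the arch, and Prrx1 is a paired-type homeodomain factor of craniofacial mesenchyme. Pitx1 and Barx2 are expressed in oral epithelium among other tissues, and Msx2 is used in both layers, where it is required for normal cusps and enamel. Pax9 binds DNA through a paired domain, and the other members through a homeodomain.

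The count tables summed to 17327224 reads in the shallowest and 29792467 in the deepest library. Levels are given as CPM, each gene's count scaled to a common library size after TMM normalisation, and at these depths 3 counts corresponded to between 0.0998 and 0.166 CPM. The lowest count of any member in any embryo was 71, so that all 9 passed the filter on low counts in both groups. The deleted gene Jag1 had 95.2 to 104.4 CPM in the controls and 34.0 to 57.1 CPM in the mutants, which is a log2 fold change of -1.19 (SE, the standard error, 0.14; adjusted p = 0.00517 by the quasi-likelihood test of edgeR). Markers of other cell types also differed between embryos. The 5 ameloblast markers Amelx, Ambn, Enam, Mmp20 and Klk4 summed to between 557 and 3254 CPM in the controls and to 3503 CPM in K14J28, 9643 in K14J30, 25820 in K14J29 and 114369 in K14J26, and the 13 skeletal muscle markers summed to 462.8 CPM in control J6 and 241.9 in J7, and no other embryo exceeded 25.3 CPM. The mutants K14J28 and K14J29 had Xist levels of 1930 and 1468 CPM, and no other embryo exceeded 1.09 CPM. High Xist thus occurred only among mutants. Fits below with the Xist level as a covariate therefore lean on K14J26 and K14J30 for the difference from the controls.

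Promoter sequence is shown for Pax9, Barx1 and Lhx8, which had the largest falls over all embryos without covariates. It is also shown for Msx1, the partner of Pax9, whose window held a match of a searched motif. RefSeq holds a promoter window of 300 bases, from 250 before to 50 after a gene's start, for 7 of the 9 members on GRCm38.p6 (Barx2 and Pitx1 had none in the table used), and Lhx6 has 3 of them. They were searched on both strands for TGGGAA, the core letters bound by the Notch effector RBPJ, and for CTTTGA, core letters of TCF/LEF sites. The parts 5′ of the start are printed for Pax9 (chr12:56695221-56695470, plus strand), Barx1 (chr13:48662786-48663035, plus strand), Lhx8 (chr3:154330561-154330810, minus strand) and Msx1 (chr5:37824586-37824835, minus strand), 5′ to 3′, with the match of a searched motif in capitals.
Pax9: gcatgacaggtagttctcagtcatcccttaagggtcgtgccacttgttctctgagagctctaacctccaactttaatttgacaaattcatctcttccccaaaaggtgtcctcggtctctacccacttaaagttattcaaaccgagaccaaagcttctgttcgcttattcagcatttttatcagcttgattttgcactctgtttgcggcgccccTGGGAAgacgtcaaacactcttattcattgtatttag
Barx1: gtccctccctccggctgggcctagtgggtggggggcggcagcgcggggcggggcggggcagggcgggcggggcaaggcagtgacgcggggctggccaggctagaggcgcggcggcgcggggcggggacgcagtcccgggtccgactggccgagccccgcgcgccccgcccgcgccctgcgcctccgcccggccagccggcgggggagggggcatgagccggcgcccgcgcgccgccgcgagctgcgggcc
Lhx8: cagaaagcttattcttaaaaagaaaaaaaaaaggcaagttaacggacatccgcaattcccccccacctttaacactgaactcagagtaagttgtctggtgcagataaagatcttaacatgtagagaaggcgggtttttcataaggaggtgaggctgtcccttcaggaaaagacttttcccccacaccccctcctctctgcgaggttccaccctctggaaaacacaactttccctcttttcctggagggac
Msx1: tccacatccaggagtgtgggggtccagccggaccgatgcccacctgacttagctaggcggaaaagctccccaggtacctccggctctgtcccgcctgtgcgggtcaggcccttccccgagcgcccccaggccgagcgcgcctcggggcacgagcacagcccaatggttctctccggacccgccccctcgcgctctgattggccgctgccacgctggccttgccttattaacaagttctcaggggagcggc
The Pax9 window held 1 TGGGAA, which begins 37 bases before the start, and the Msx1 window held 1 that begins 27 bases after it. The other 7 windows of members did not hold these letters, and none of the 9 windows held CTTTGA. Of all 32851 windows in the table, 25.6% held TGGGAA and 16% held CTTTGA on either strand. The windows differ in composition: 84.7% of the bases of the Barx1 window and 70% of the Msx1 window were G or C, with 50 and 29 CpG dinucleotides, against 47.0% for both Pax9 and Lhx8, with 11 and 4 CpG. The Pax9 start of RefSeq lies inside the longer gene model of GENCODE, which begins upstream of it.

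All 9 members had lower mean levels and a negative log2 fold change in K14Cre;Jagged1fl/fl molars, as did 49.3% of all tested genes. Pax9, Barx1, Lhx8, Pitx1 and Msx1 fell with an adjusted p under 0.05 (quasi-likelihood test of edgeR, Benjamini-Hochberg over 17129 genes). None had a positive log2 fold change, so that none rose, where 9.52% of all tested genes did. These 5 of 9 stand beside 6.61% of all tested genes that were called lower. Pax9, Barx1 and Lhx8 also passed the thresholds of the study's methods, read here as p up to 0.05 before adjustment with a log2 fold change of 0.5 or more in size, which 5.85% of all tested genes passed in the lower and 8.33% in the higher direction. For 6 of the 9 members every mutant value lay below every control value, as it did for 11.6% of all tested genes. The median log2 fold change was -0.37 over the members and 0.01 over all tested genes. The 9 members were not a random draw of genes, and Pax9 and Barx1 had been singled out by the study on these embryos.

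**Figure D1:**
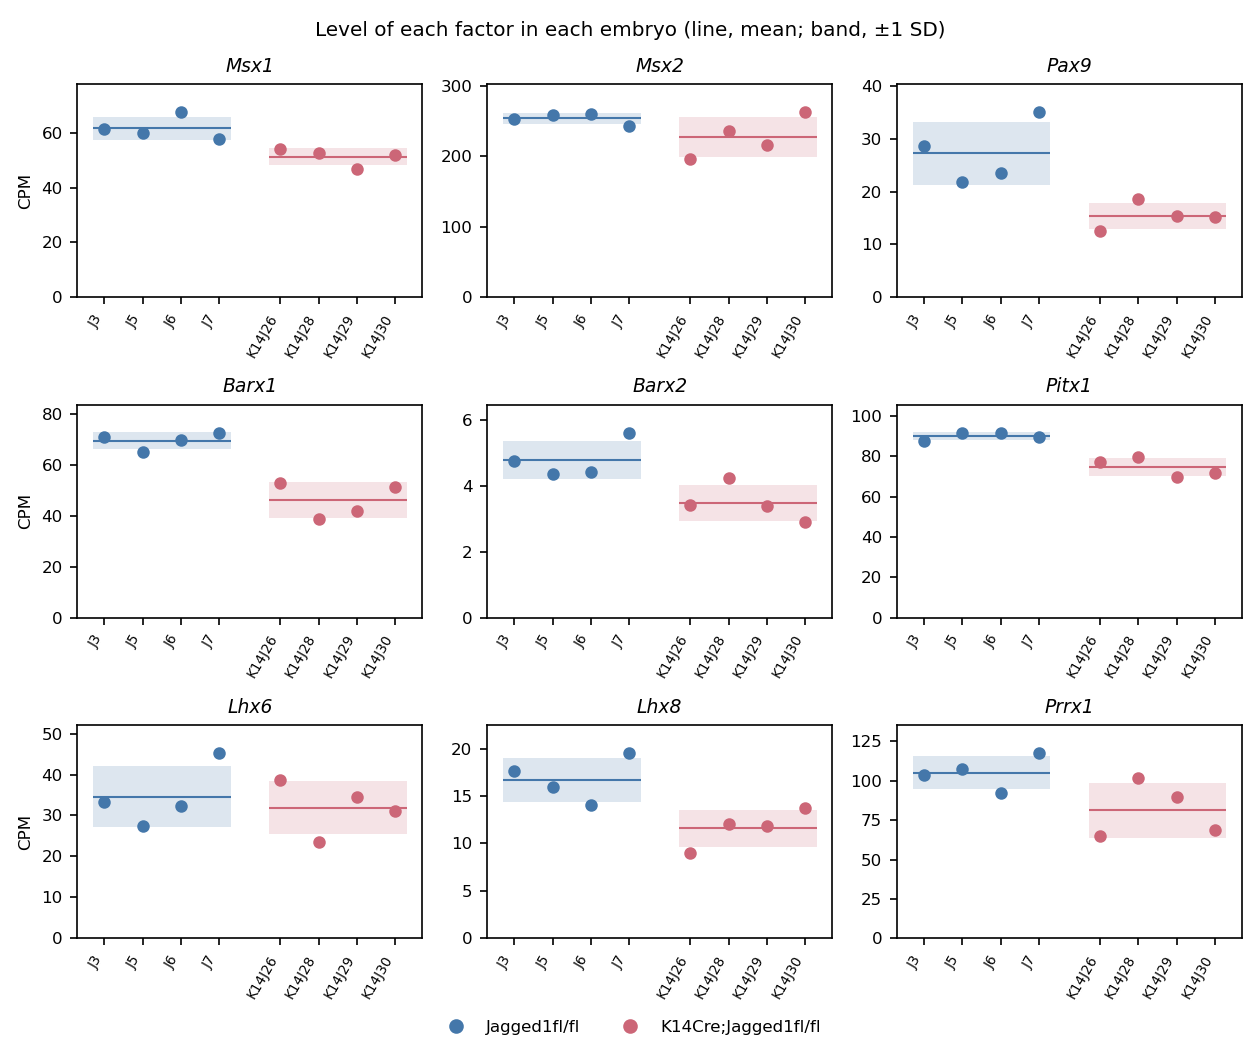
Level of each of the 9 factors in CPM (y axis, from 0) in each embryo (x axis), in blue for the 4 Jagged1fl/fl and in red for the 4 K14Cre;Jagged1fl/fl embryos, with the group mean as a line and 1 SD as a band. The red points lie below all blue points for Msx1, Pax9, Barx1, Barx2, Pitx1 and Lhx8, and the colours overlap for Msx2, Lhx6 and Prrx1.

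Pax9 (ENSMUSG00000001497, chromosome 12 of GRCm38 from 56691767 to 56712822, plus strand) had the largest fall of the 9 over all embryos without covariates. It was at 28.6, 21.8, 23.5 and 35 CPM in J3, J5, J6 and J7 and at 12.6, 18.6, 15.4 and 15.2 CPM in K14J26, K14J28, K14J29 and K14J30. The mutants kept 56.7% of the control mean, and the highest mutant, K14J28, stayed below the lowest control, J5. Its log2 fold change was -0.82 (SE 0.17, edgeR adjusted p = 0.0175). The controls themselves spread widely, with a coefficient of variation of 21.7% against 15.9% in the mutants. The adjusted p was above 0.05 when J3, J7 or K14J29 was left out, at 0.054, 0.051 and 0.060, and the fold change ran from -0.92 to -0.68 over the 8 fits with a single embryo removed. With the ameloblast marker score described below as a covariate, Pax9 was at -0.35 (edgeR adjusted p = 0.285), where Barx1 was at -0.74. The last 189 bases of Pax9 exon sequence, 3.74% of the total, are shared with exons of Slc25a21 on the opposite strand. The library kit does not mark strand, but Slc25a21 had at most 30 counts in any embryo against at least 262 for Pax9.

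Msx1 (ENSMUSG00000048450, chromosome 5 from 37820485 to 37824583, minus strand), the partner of Pax9 in the mesenchyme, also fell. Its level was 61.3, 60.1, 67.5 and 57.8 CPM in J3, J5, J6 and J7, and 54.1, 52.5, 46.8 and 52.0 CPM in K14J26, K14J28, K14J29 and K14J30. The groups did not overlap, with control J7 and K14J26 nearest to each other. The log2 fold change was -0.26 (SE 0.07, edgeR adjusted p = 0.0390). Msx1 was called in 2 of the 8 fits without 1 embryo, those without K14J26 or K14J28, with adjusted p between 0.0266 and 0.105 over the 8. A difference in change between Pax9 and Msx1 was not shown by the test of their ratio given below, which a single pair could not pass after adjustment.

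Barx1 (ENSMUSG00000021381, chromosome 13 from 48662998 to 48666507, plus strand), the factor of molar-forming mesenchyme, was steady in the controls at 70.8, 64.9, 69.9 and 72.6 CPM in J3, J5, J6 and J7. In K14J26, K14J28, K14J29 and K14J30 it was at 53.0, 38.9, 41.9 and 51.3 CPM. All mutants lay well below the lowest control, and the log2 fold change was -0.59 (SE 0.10, edgeR adjusted p = 0.0130), the lowest adjusted p of the 9. The call was lost, narrowly, in 1 of the 8 fits without 1 embryo, at an adjusted p of 0.0509 without K14J29. K14J26, the mutant with the highest ameloblast markers, had the most Barx1, Msx1 and Lhx6 of the mutants, and it had the least Pax9, Lhx8, Prrx1 and Msx2. With the ameloblast marker score as a covariate, Barx1 was the only member still called (log2 fold change -0.74, adjusted p = 0.040), while Pax9 was at -0.35 (adjusted p = 0.285) and Lhx8 at -0.12 (adjusted p = 0.715). In this fit 112 genes were called lower and 186 higher in all, against 1133 and 1631 without the covariate. The score is the mean log2 level of the 5 markers, and it was at most 6.88 in the controls and at least 6.95 in the mutants, so that its ranges did not overlap between the genotypes.

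The LIM-homeodomain pair gave different calls. Lhx8 (ENSMUSG00000096225, chromosome 3 from 154306294 to 154330659, minus strand) was at 17.6, 15.9, 14 and 19.5 CPM in J3, J5, J6 and J7 and at 8.99, 12, 11.8 and 13.7 CPM in K14J26, K14J28, K14J29 and K14J30. The highest mutant, K14J30, was just under the lowest control, J6. Lhx8 had a log2 fold change of -0.53 (SE 0.15, edgeR adjusted p = 0.0408), and it was called in 4 of the 8 fits without 1 embryo, with adjusted p up to 0.114. With the ameloblast score as a covariate Lhx8 was at -0.12 (adjusted p = 0.715), and with the Xist level at -0.59 (adjusted p = 0.073). Lhx6 (ENSMUSG00000026890, chromosome 2 from 36081953 to 36105408, minus strand) was at 33.4, 27.5, 32.4 and 45.2 CPM in the controls J3, J5, J6 and J7. Its mutant values of 38.7, 23.4, 34.6 and 31.0 CPM in K14J26, K14J28, K14J29 and K14J30 lay within the control range but for K14J28, which was below it. Its log2 fold change of -0.12 (SE 0.18) did not pass, with an edgeR adjusted p of 0.665, and changed sign, to 0.03, without control J7. With the Xist level as a covariate Lhx6 was at 0.02 (adjusted p = 0.952), and with the ameloblast score at -0.40 (adjusted p = 0.432). A difference between Lhx8 and Lhx6 was not shown by the test of their ratio given below, which a single pair could not pass after adjustment.

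Pitx1 (ENSMUSG00000021506, chromosome 13 from 55825051 to 55836192, minus strand), a bicoid-type homeodomain factor of the mandibular arch and oral epithelium, varied least. It had 87.8, 91.7, 91.7 and 89.7 CPM in J3, J5, J6 and J7, a coefficient of variation of 2.09%, and 77.2, 79.5, 70 and 71.7 CPM in K14J26, K14J28, K14J29 and K14J30. The mutants kept 82.7% of the control mean, with no overlap, and the log2 fold change was -0.27 (SE 0.06, edgeR adjusted p = 0.0211). The size of this change hardly moved when single embryos were left out, from -0.31 to -0.24, while the call held in 3 of the 8 fits. Pitx1 shares 108 bases of exon with the non-coding gene Gm28760, which had 27 to 52 counts, and 165 bases with the antisense gene Gm47071, which was not analysed here.

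Barx2 (ENSMUSG00000032033, chromosome 9 from 31846044 to 31913462, minus strand), the relative of Barx1, was the least abundant member. It was at 4.76, 4.37, 4.41 and 5.61 CPM in J3, J5, J6 and J7 and at 3.41, 4.23, 3.40 and 2.91 CPM in K14J26, K14J28, K14J29 and K14J30. The groups did not overlap, but the log2 fold change of -0.46 (SE 0.16) did not pass, with an edgeR adjusted p of 0.0762. Without K14J28, the mutant nearest to the controls, the value was -0.57 with an adjusted p of 0.029, and without J7 it was -0.38 with an adjusted p of 0.187. With the ameloblast score as a covariate Barx2 was at -0.25 (adjusted p = 0.607).

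Prrx1 (ENSMUSG00000026586, chromosome 1 from 163245119 to 163313710, minus strand) was at 103.6, 107.3, 92.0 and 117.5 CPM in J3, J5, J6 and J7. Among the mutants K14J26 and K14J30 had 64.8 and 68.9 CPM, and K14J28 and K14J29 had 101.7 and 89.5 CPM. K14J28 thus lay inside the control range and the other 3 mutants below it. The log2 fold change was -0.37 (SE 0.14, edgeR adjusted p = 0.103), and over the fits without 1 embryo it ran from -0.50 without K14J28 (adjusted p = 0.021) to -0.28 without K14J26 (adjusted p = 0.152). With the Xist level as a covariate Prrx1 was at -0.69 (adjusted p = 0.024), and with the ameloblast score at -0.03 (adjusted p = 0.945).

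Msx2 (ENSMUSG00000021469, chromosome 13 from 53466884 to 53473074, minus strand) had 252.7, 258.4, 260.0 and 243.2 CPM in J3, J5, J6 and J7, a narrow range. The mutants K14J26, K14J28, K14J29 and K14J30 had 196.0, 235.2, 215.6 and 262.3 CPM, so that 3 were below all controls and K14J30 was above them. The log2 fold change was -0.16 (SE 0.09, edgeR adjusted p = 0.229), and with the ameloblast score as a covariate it was 0.0089 (adjusted p = 0.975). Without K14J26 it was -0.09 (adjusted p = 0.387) and without K14J30 -0.23 (adjusted p = 0.0726). The coefficient of variation of Msx2 was 12.4% in the mutants against 3.0% in the controls, and over the 9 members it was larger in the mutants for 6. The share of all genes with a larger value in the mutants is not given here. Pairs of mutant libraries differed more (chi-square per degree of freedom 30.5 to 290.7) than pairs of control libraries (6.94 to 15.7). A difference in spread was not tested.

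**Figure D2:**
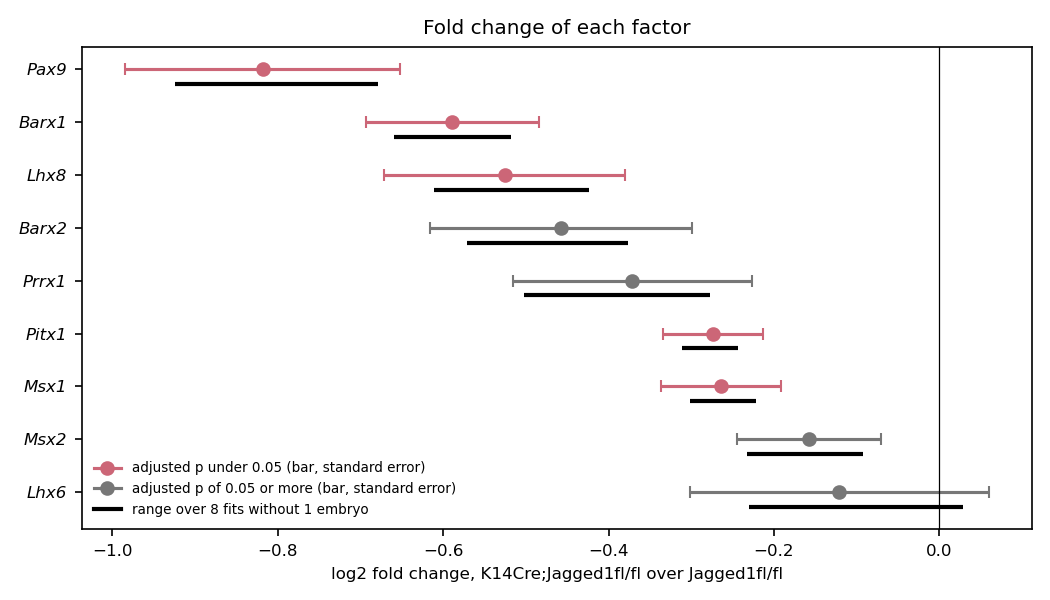
Log2 fold change of each factor (x axis; rows ordered by size), with its SE as a bar, in red where the adjusted p was under 0.05 and in grey otherwise; the black bars give the range over the 8 fits with a single embryo removed. Values run from -0.82 for Pax9 to -0.12 for Lhx6, and the black bar crosses 0 for Lhx6 alone.

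Leaving out embryos moved the calls more than the fold changes. Over the 8 fits without 1 embryo, between 0 and 7 members were called lower, the least without K14J29 and the most without K14J28, and the counts over all genes moved likewise, from 170 lower genes without K14J29 to 1843 without K14J28. Without both J6 and J7, the controls with muscle transcripts, none of the members was called, where 4 lower and 3 higher genes were called in all. The fold changes were then -0.71 for Pax9, -0.55 for Barx1, -0.53 for Lhx8, -0.27 for Pitx1 and -0.24 for Msx1. Covariates moved the members by different amounts, and the fit with the epithelium minus mesenchyme score is given with the markers below. With the skeletal muscle score the fold changes of the called members stayed near their values, at -0.73 for Pax9, -0.57 for Barx1, -0.50 for Lhx8, -0.27 for Pitx1 and -0.25 for Msx1, while their edgeR adjusted p lay between 0.0708 and 0.153. With the ameloblast score Pitx1 and Msx1 also kept their size, at -0.27 and -0.32, but were not called (adjusted p = 0.124 and 0.126), in contrast to the smaller values of Pax9 and Lhx8. With the Xist level Pax9 was at -1.01 and Barx1 at -0.39, both called (adjusted p = 0.0267 and 0.0263), whereas Lhx8 at -0.59, Pitx1 at -0.28 and Msx1 at -0.21 were not (adjusted p = 0.073, 0.0527 and 0.146). No control had high Xist, so these values rest mainly on K14J26 and K14J30 against the controls. Scaling did not turn the direction of any member: from TMM to library size alone, the fold change of Pitx1 went from -0.27 to -0.37 and that of Msx1 from -0.26 to -0.37, while the median of all genes went from 0.01 to -0.09. By library size Lhx8 was at -0.61 and was not called (edgeR adjusted p = 0.0595). Without the filter on low counts Msx1 was at -0.27 and was not called (edgeR adjusted p = 0.0519).

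Whether members of a family, or partners, moved by different amounts was asked from the ratio of their counts within each embryo, which does not depend on scaling. The log2 ratio of Msx2 to Msx1 was 2.04 ± 0.07 in controls and 2.14 ± 0.20 in mutants (SD, n = 4 each; exact permutation test, two-sided, p = 0.343). The ratio of Barx2 to Barx1 was -3.86 ± 0.12 and -3.72 ± 0.41 (p = 0.571, same exact test). For Lhx8 to Lhx6 the values were -1.03 ± 0.21 and -1.45 ± 0.50 (exact p = 0.171), with K14J26 lowest at -2.10. Pax9 to Msx1 went from -1.20 ± 0.37 to -1.75 ± 0.26 (exact p = 0.0571). Adjusted over these 4 pairs, no p was under 0.229, and the groups overlapped for all 4 ratios. The smallest p the design allows before adjustment is 0.0286. Even at that value a single pair would not have an adjusted p under 0.05. The adjusted test thus could not show a difference for a single pair alone. Unequal change within these pairs was therefore not shown, which does not show that they changed alike.

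**Figure D3:**
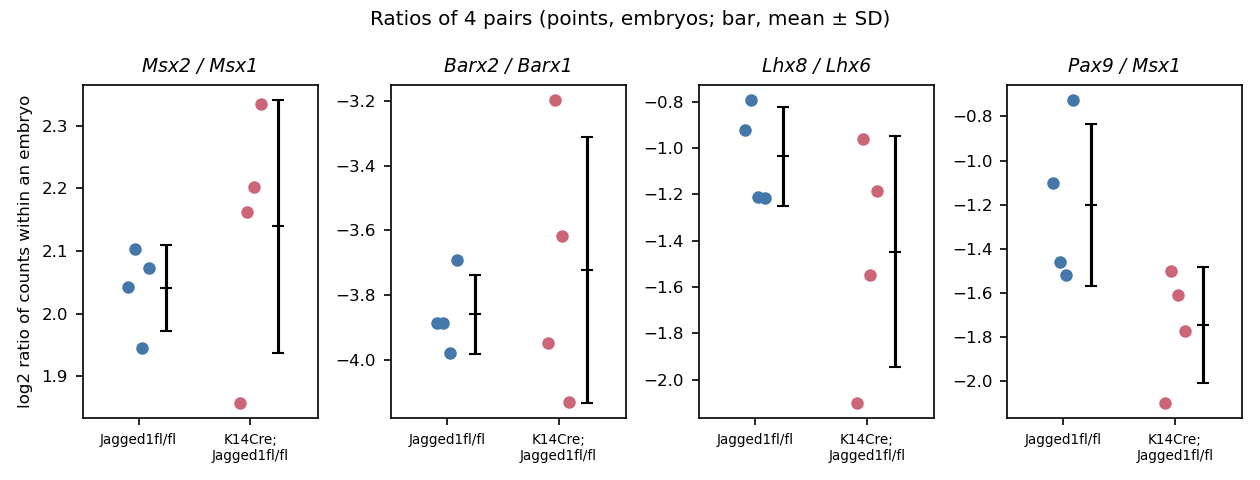
Log2 ratio of the counts of 2 factors within each embryo (y axis, a separate scale for each panel), for 4 pairs, in blue for Jagged1fl/fl and in red for K14Cre;Jagged1fl/fl embryos, with the mean and SD of each group in black. The groups overlap in each panel, most narrowly for Pax9 to Msx1, where the mutants lie between -2.10 and -1.50 and the controls between -1.52 and -0.72.

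Per kilobase of exon, the factors covered a wide range of levels. In control molars Msx2 was highest at 77.3 ± 2.32 CPM per kilobase (SD, n = 4), followed by Barx1 at 49.7 ± 2.37, Pitx1 at 34.0 ± 0.71 and Msx1 at 19.9 ± 1.34, and the values of these 4 did not overlap. Prrx1 at 9.50 ± 0.95, Lhx6 at 7.21 ± 1.56, Lhx8 at 6.61 ± 0.93 and Pax9 at 5.38 ± 1.17 overlapped from one to the next. Barx2 was lowest at 2.43 ± 0.29. This order of means also held with the longest transcript as the length. The levels depended on the length used, and Msx1 was then at 31.9 and Prrx1 at 16.1 CPM per kilobase. In mutants the values were 69.3 ± 8.62 for Msx2, 33.1 ± 4.98 for Barx1, 28.1 ± 1.69 for Pitx1 and 16.6 ± 1.02 for Msx1, and Barx1 and Pitx1 now overlapped, with Barx1 below Pitx1 in K14J28. Prrx1, Lhx6, Lhx8, Pax9 and Barx2 followed at 7.34, 6.64, 4.59, 3.05 and 1.77 CPM per kilobase, in the same order as in controls.

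**Figure D4:**
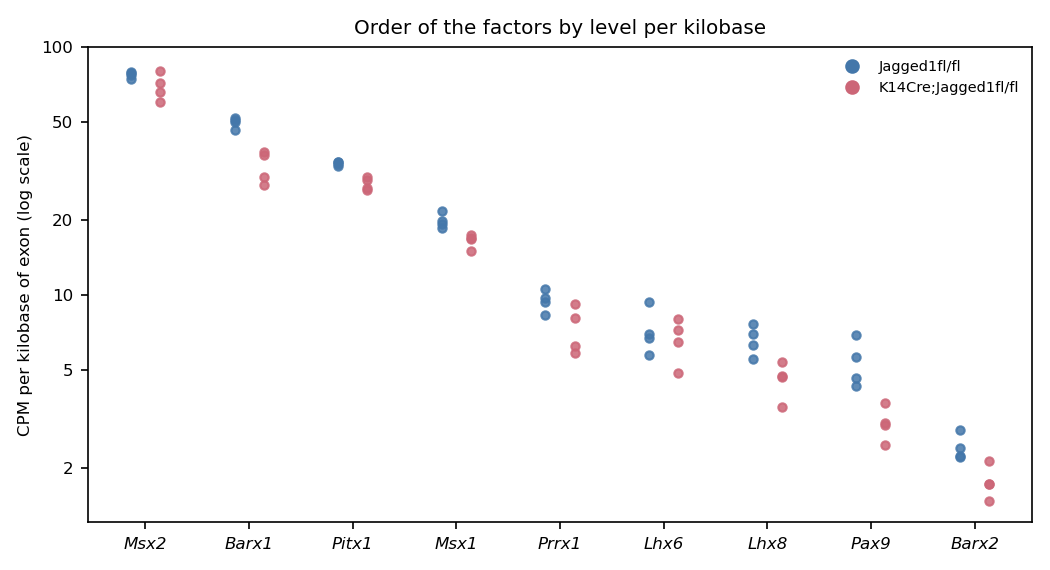
CPM per kilobase of exon (y axis, log scale) of each factor in each embryo, ordered by the control mean, in blue for Jagged1fl/fl and in red for K14Cre;Jagged1fl/fl embryos. Msx2 is highest and Barx2 lowest in all 8 embryos, and the blue and red points of Barx1 and Pax9 do not overlap.

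Reads of paralogues can be confused where their transcripts share sequence. The longest run of identical bases between transcripts was 22 for Msx1 and Msx2, 17 for Barx1 and Barx2 and 14 for Lhx6 and Lhx8, much shorter than a read. Runs of 100 bases or more were shared only with the overlapping genes named above and, for Lhx6, with Gm27953, a short RNA gene within it that had at most 14 counts.

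The genes whose profile over the 8 embryos came closest to each member were found by the root-mean-square difference of log2 levels after centring each gene, among tested genes with a mean of at least 5 CPM. Nearest to Pax9 was Vcan, the matrix proteoglycan versican, at a difference of 0.0950 log2 units and with a log2 fold change of -0.82. Barx1 was nearest to Eva1b (0.10), Lhx8 to Tenm4 (0.07), a teneurin, and Prrx1 to Grb10 (0.06), an adaptor of growth factor receptors. Msx1 was nearest to 5430405H02Rik (0.05), Msx2 to Slc1a5 (0.04), a glutamine transporter, Pitx1 to the phosphatase gene Ppm1a (0.04), Barx2 to Rnf217 (0.06) and Lhx6 to Ppp1r16b (0.12). Among the members, Msx1 and Pitx1 were closest to each other, at 0.07, and Pax9 and Lhx6 farthest apart, at 0.48.

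Of 18 relatives of the members and cofactors of LIM factors, 8 had enough counts to be tested, and 3 of them fell while none rose. Over all tested genes 6.61% fell and 9.52% rose, so that with 8 genes a count of 0 higher is near the background. Prrx2, the paralogue of Prrx1, was at 25.7, 24.0, 24.2 and 29.5 CPM in J3, J5, J6 and J7 and at 9.52, 16.1, 15.9 and 16.8 CPM in K14J26, K14J28, K14J29 and K14J30. Its log2 fold change was -0.82 (SE 0.17, edgeR adjusted p = 0.0179), without overlap. Lmo1, a LIM-only protein that competes for LIM cofactors, went from 12.1 ± 1.14 to 4.43 ± 1.43 CPM (means ± SD of 4 embryos), with a log2 fold change of -1.44 (edgeR adjusted p = 0.00848). Lmo3 was low throughout, at 1.75 ± 0.84 and 0.32 ± 0.28 CPM (log2 fold change -2.36, edgeR adjusted p = 0.0245). The LIM cofactor Ldb1 had a log2 fold change of -0.07, which did not pass (edgeR adjusted p of 0.558).

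Other transcription factors of jaw and dental mesenchyme were also listed. Of these 23, 19 were tested, 16 had a negative log2 fold change against 49.3% of all tested genes, 10 fell against 6.61%, 9 were not called and none rose, with a median log2 fold change of -0.29. By adjusted p they were led by Dlx1 (-0.82, adjusted p = 0.00485) and Dlx2 (-0.53, adjusted p = 0.00717), homeobox genes of the upper jaw and molar mesenchyme, and by Foxf2, a forkhead factor, and Tfap2a, a neural crest factor, which tied (-0.65 and -1.06, both with adjusted p = 0.0104, edgeR). Dlx1 and Dlx2 were also named by the study on these embryos. Of 12 factors of dental epithelium, all tested, 2 fell and 1 rose, where 6.61% of all tested genes fell and 9.52% rose. Tbx1, a T-box factor of dental epithelium, went from 108.7 ± 8.05 to 64.3 ± 7.06 CPM (means ± SD of 4 embryos, log2 fold change -0.76, edgeR adjusted p = 0.00517), and the Wnt effector Lef1 fell by 0.95 on the same scale (adjusted p = 0.0104). Sp6, a factor of enamel-forming cells, rose by 0.30 (adjusted p = 0.0295). Because these lists were drawn up with earlier results of these data known, their counts are no independent support.

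Among 14 signals known to act upstream or downstream of the members, 12 were tested, 2 fell and 2 rose, against 6.61% and 9.52% of all tested genes, or 16.1% in either direction. Bmp4, which Msx1 and Pax9 act on, was at 55.3, 56.7, 58.5 and 57.5 CPM in J3, J5, J6 and J7 and at 72.7, 46.6, 54.5 and 59.0 CPM in K14J26, K14J28, K14J29 and K14J30, on both sides of the controls. Its log2 fold change was 0.03 (SE 0.12, edgeR adjusted p = 0.885). Fgf9 and Fgf3 fell by 1.66 and 1.28 on the log2 scale (edgeR adjusted p = 0.0282 and 0.0351). Bmp2 and Wnt10a rose by 0.77 and 0.97 on the log2 scale (adjusted p = 0.030 and 0.0489), each with values that overlapped between the groups.

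**Figure D5:**
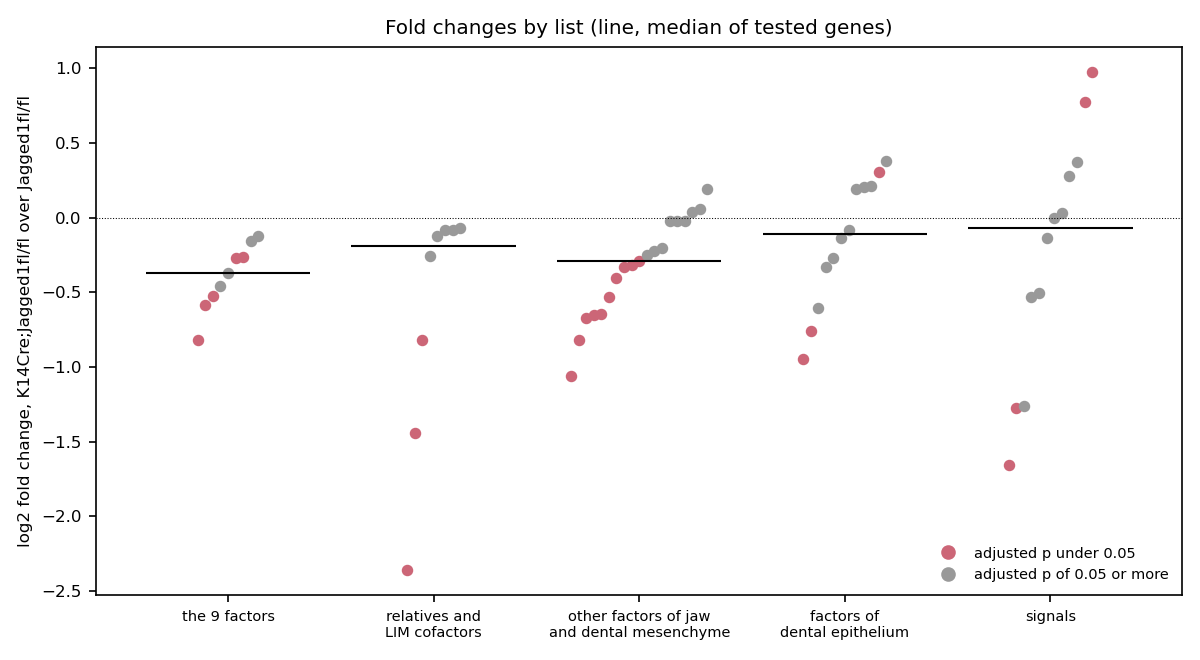
Log2 fold change (y axis) of each tested gene in the 9 factors and 4 related lists (x axis), in red where the adjusted p was under 0.05 and in grey otherwise, with the median of each list as a black line. The medians are -0.37 for the 9 factors, -0.19 for relatives and cofactors, -0.29 for other mesenchymal factors, -0.11 for epithelial factors and -0.07 for signals.

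General markers of the tissue layers moved in both directions. Of 10 mesenchyme markers 3 fell (Pdgfrb, Twist1 and Lum) and 4 rose (Col1a1, Col1a2, Pdgfra and Dcn), and their summed level was 9400 to 14159 CPM in controls and 12846 to 31916 CPM in mutants. Most of this sum was Col1a1 and Col1a2, and the other 8 markers summed to 3779 to 4672 CPM in controls and 3685 to 4223 CPM in mutants, with means of 4196 and 3967 CPM. Of 10 epithelium markers none was called lower and 1 rose, Krt14, with sums of 7129 to 8125 CPM in controls and 8141 to 11135 CPM in mutants. Krt5 and Krt14 were a large part of this sum, at means of 2834 and 850.6 CPM in controls and 3518 and 1649 CPM in mutants. A negative log2 fold change was found for 2 of the 10. For Epcam, every mutant lay below every control, but it was not called (log2 fold change -0.51, edgeR adjusted p = 0.0527). With the difference of the epithelium and mesenchyme scores as a covariate, the fold changes of the 5 called members lay between -0.82 and -0.29, and 4 of them were still called, all but Lhx8 (adjusted p = 0.072). Odontoblast markers summed to 754.7 to 2061 CPM in controls and 2422 to 7542 CPM in mutants, and 4 of 6 rose while 2 were not called. A single marker was the largest part of this sum in every embryo. Every mutant value lay above every control value for 3 of the 6. Cartilage markers, of which 1 of 4 tested fell, summed to 77.2 to 103.9 CPM in controls and 47.2 to 64.1 CPM in mutants. That gene, Hapln1, made up most of the sum, and the other 5 summed to 13.6 to 19.1 CPM in controls and 10.5 to 14.4 CPM in mutants, which overlap. Of the bone markers 3 of 6 rose and of the nerve markers 1 of 6, while none of the 6 endothelium, 6 erythroid and 6 macrophage markers was called. Over all tested genes 6.61% were called lower and 9.52% higher. Counts of 0 or 1 called marker per list thus lie near the background. The part of the odontoblast, cartilage, bone and nerve markers in the members' results was not tested.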

How the data were processed

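RNA of 8 molar samples was sequenced by the authors on poly A libraries without strand information, as single-end reads of 125 bases. Per the paper, the authors trimmed 5 bases at the 3′ end and used STAR for alignment to GRCm38. The authors deposited counts of reads per Ensembl gene, not normalized, in 1 table per embryo. The counter is GenomicRanges in the paper and featureCounts in the submitters' processing notes, and the treatment of reads with several matches is not given in the sources used here. Symbols, positions and exon lengths come from GENCODE M21, where 42548 of the 43629 identifiers were found.

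The 17129 genes that reached 10 counts in 2 or more samples of a group were scaled by TMM and tested with edgeR 4.0.16 in R 4.3.3 (glmQLFit, glmQLFTest, no covariates, Benjamini-Hochberg over all genes kept). A call is an adjusted p under 0.05. The SE of a log2 fold change is its size divided by the square root of F. Marker scores are means of log2(CPM + 0.1), and ratios use counts plus 0.5 and exact permutation tests in scipy 1.17.1. Samples of 1 group differed by more than counting noise. The 4 embryos per group and, for low genes such as Barx2, the depth limit the precision. Alternatives were other scalings, filters, DESeq2 1.42.0, covariates and left-out embryos. On simulated counts for 16834 genes, with 200 changed, 67% of changes of 1 and 30% of changes of 0.5 on the log2 scale were recovered. In the data a far larger share, 16.1% of tested genes, was called, so recovery there can differ. The named genes were the members, Jag1, up to 3 called genes per direction and list, overlapping genes and the nearest profiles. Ldb1, Bmp4, Krt5, Epcam, Hapln1 and the other called markers were named after their values were seen. The members and lists were chosen with earlier results of these data known. P-values measure the spread between embryos. The study's stainings and RT-PCR were not analysed here. The values of 1 listed gene are not reported here.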

Additional observations from a re-analysis of the deposited data

How the results depend on the processing

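The count of 5 members called lower was within 1.5 times of that under scaling by RLE, by the upper quartile or by library size, DESeq2, both other filters and the epithelium minus mesenchyme covariate. It was 3 with the Xist level as a covariate, 1 with the ameloblast score, and 0 with the skeletal muscle score, without both J6 and J7, and without K14J26, J6 and J7, the last chosen after the data were seen. Over the fits without 1 embryo it ran from 0 to 7. With the muscle score the fold changes hardly moved (Pax9 -0.73, Barx1 -0.57), while with the ameloblast score that of Pax9 was -0.35 and that of Barx1 -0.74. No setting called a member higher. The count of 3 members past the study's thresholds was 1 with the ameloblast score and 2 to 5 without 1 embryo. Over all genes, 1133 lower and 1631 higher genes were called, against 855 higher by library size, 1718 lower by DESeq2, 112 and 186 with the ameloblast score, 44 and 43 with the muscle score, 4 and 3 without J6 and J7, 74 and 77 without K14J26, J6 and J7, and 170 to 1843 lower and 250 to 2479 higher without 1 embryo. Jag1 stayed between -1.34 and -1.04 and missed 0.05 only without J6 and J7 (-1.17, adjusted p = 0.115). The log2 fold change of Lhx6 ran from -0.2301 to 0.0292 without 1 embryo, positive only without J7, and was 0.0655 without J6 and J7 and 0.0229 with Xist. That of Msx2 was 0.0089 with the ameloblast score. The change of the log2 Barx2 to Barx1 ratio ran from -0.0388, without K14J28, to 0.2731, without K14J30, that of Msx2 to Msx1 from 0.0332, without K14J30, to 0.1924, without K14J26, that of Lhx8 to Lhx6 from -0.5762, without K14J28, to -0.1953, without K14J26, and that of Pax9 to Msx1 from -0.6499 to -0.3842. The causes of the differences between settings were not tested. No paired analysis was possible because it was not given which embryos shared a litter. Barx2 had the fewest counts of the members, from 71 per embryo.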
